A study of Mus musculus with 12 samples.

Results

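The Rab GTPase genes were described as binding sites of Jmjd2a and Jmjd2c, enzymes of the Kdm4 family that remove methyl groups from histone H3. Members were the genes whose symbol is Rab, a number and an optional letter and that the deposited peak or start-site files name. A member was called bound when a peak lay within 1000 bp of a start site. Start sites came from the peak lists and from the authors' deposited table of co-bound start sites. The rule found 44 genes, out of 59 mouse RefSeq genes with a symbol of that form and 26215 RefSeq genes with a curated transcript.

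The peaks come from chromatin immunoprecipitation and sequencing in mouse cells labelled L-GMP that were transformed with the leukaemia fusion MLL-AF9. All libraries share the C57BL/6 background, floxed Jmjd2a, Jmjd2b and Jmjd2c alleles and a tamoxifen-activated CreERT2 at Rosa26, and the cells grew in RPMI with 20% serum and 10 ng/ml interleukin-3. The 12 libraries form 8 groups. Jmjd2a and Jmjd2c have 1 untreated library each and 1 from cells given 500 nM OHT for 96 h, and H3K9me3 and H3K36me3 have 2 libraries per condition. The deposited files hold peak positions with no height and no value per library, so the OHT effect, both histone marks and sequencing depth were not analysed here, and no replicate check exists. Peak positions hold no expression level, so the labelled cell type could not be checked against markers.

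Rab proteins are small GTPases that mark membranes and direct the budding, transport, tethering and fusion of vesicles. Each cycles between a GTP-bound form that recruits effectors and a GDP-bound form. Exchange factors switch Rabs on, GTPase-activating proteins switch them off, and a prenyl tail added by Rab geranylgeranyl transferase anchors them in the membrane. Blood cells use them to recycle receptors, to feed lysosomes and to release granules.

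Most Rab genes carried Jmjd2c at a start site, and fewer carried Jmjd2a. Jmjd2c lay at 41 of the 59 Rab genes (69.5%), against 44.6% of 21027 protein-coding genes and 37.9% of all RefSeq genes. Jmjd2a lay at 29 of 59 (49.2%), against 32.3% of protein-coding genes and 27.4% of all RefSeq genes. Both proteins lay at 26 genes (44.1%, against 29% of protein-coding and 24.5% of all genes), Jmjd2c alone at 15 (25.4%, against 15.7% of protein-coding genes) and Jmjd2a alone at 3 (5.08%, against 3.34%). The other 15 genes had neither (25.4%, against 52.1%). No set test was made, and these shares describe 1 peak list per protein.

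Among the bound genes the pairing of the proteins matched the genome-wide shares. Jmjd2c was at 89.7% of the Rab genes with Jmjd2a and at 89.7% of all protein-coding genes with Jmjd2a. Jmjd2a was at 63.4% of the Rab genes with Jmjd2c, against 64.9% over protein-coding genes.

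**Figure D1:**
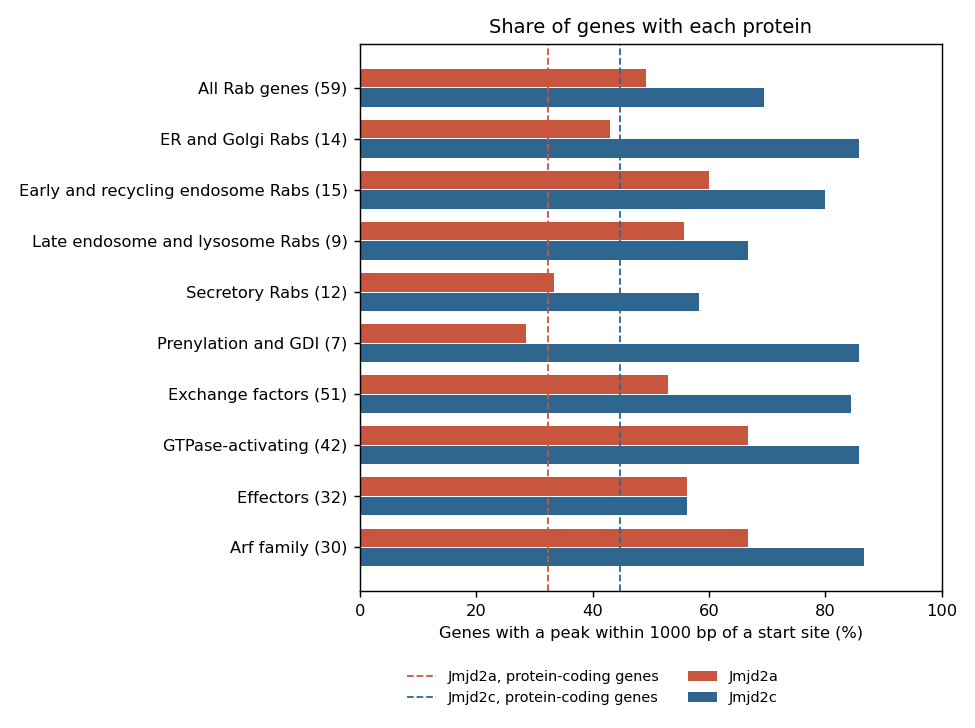
Percentage of genes with a Jmjd2a peak (red) or a Jmjd2c peak (blue) within 1000 bp of a start site, for all Rab genes, 4 functional classes of Rab genes, their regulators and the Arf family, with the number of genes in parentheses. Dashed lines mark protein-coding genes, at 32.3% for Jmjd2a and 44.6% for Jmjd2c. All Rab genes stood at 49.2% and 69.5%.

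Rab genes of the early secretory route carried Jmjd2c more often than Jmjd2a, as did protein-coding genes as a whole (44.6% and 32.3%). Of 14 Rabs that act at the endoplasmic reticulum and Golgi, 12 had Jmjd2c (85.7%). Jmjd2a was at 6 of the 14 (42.9%), all of these with both. Rab1a and Rab1b, which drive transport from the endoplasmic reticulum to the Golgi, had Jmjd2c alone, with peaks of 820 and 965 bp. Rab2a and Rab2b, which act at the Golgi, also had Jmjd2c alone, with peaks of 1268 and 1834 bp. The peak at Rab2b was also named for the start of Tox4. Rab6a, which serves traffic within and back through the Golgi, had a Jmjd2c peak of 1988 bp that also covered the start of Mrpl48, a mitochondrial ribosomal protein gene. Its paralog Rab6b, best known from neurons, had both proteins, with a Jmjd2a peak of 1056 bp (chromosome 9, 103111377 to 103112432) inside a Jmjd2c peak of 1444 bp (103111147 to 103112590). Rab6b was the one bound Rab gene with further peaks of both proteins between 1000 and 5000 bp from its start. The Jmjd2a peaks of 325 and 511 bp there lay 3398 and 2637 bp upstream, each inside a Jmjd2c peak, at 3387 and 2392 bp. Rab18 of lipid droplets and the endoplasmic reticulum, Rab30, Rab33b, Rab34 and Rab43 also had both, Rab36 had Jmjd2c alone, and Rab19 and Rab33a had neither. The Jmjd2c peak at Rab30 was also named for the start of 4632427E13Rik.

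Rab genes of the early and recycling endosome were bound by Jmjd2a at 9 of 15 (60%, against 32.3% of protein-coding genes). Jmjd2c was at 12 of 15 (80%, against 44.6%). Rab5a, a master regulator of early endosome fusion, had the widest Jmjd2c peak of the family, 2391 bp (chromosome 17, 53477852 to 53480242), reaching from 1382 bp upstream to 1008 bp downstream of the start. Its Jmjd2a peak of 675 bp lay upstream, 558 bp from the start. Rab5c had both proteins, with peaks of 525 and 1436 bp, and Rab5b had a Jmjd2c peak of 846 bp alone. Rab21, which moves integrins through endosomes, paired the second widest Jmjd2c peak, 2161 bp (chromosome 10, 115314127 to 115316287), with a narrow Jmjd2a peak of 361 bp over the start. Rab11a of the recycling endosome had a Jmjd2a peak of 959 bp that began 80 bp downstream of the start, within a Jmjd2c peak of 1679 bp (chromosome 9, 64736661 to 64738339). Rab31 had the third widest Jmjd2a peak, 1181 bp, which overlapped a Jmjd2c peak of 1226 bp. Rab4b, Rab22a and Rab35 also had both, Rab4a, Rab14 and Rab15 had Jmjd2c alone, and Rab17 and Rab25, known from epithelial cells, had neither.

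Late endosomal, lysosomal and autophagy Rabs included Rab9 and Rab12, which had the widest Jmjd2a peaks of the family. Both proteins were at 5 of 9 genes (55.6%, against 29% of protein-coding genes). Rab9, which returns receptors from late endosomes to the Golgi, had the widest Jmjd2a peak of the family, 1490 bp (chromosome X, 166478727 to 166480216). It was wider than the Jmjd2c peak of 1020 bp, which reached from 334 bp upstream to 685 bp downstream of the start. Rab12 followed with a Jmjd2a peak of 1197 bp (chromosome 17, 66518902 to 66520098) inside a Jmjd2c peak of 1799 bp. Rab39 had a Jmjd2a peak of 1140 bp over its start (chromosome 9, 53705464 to 53706603), and its Jmjd2c peak of 538 bp began 10 bp beyond the upstream edge of the Jmjd2a peak. Rab20 had peaks of 977 and 1927 bp, both also named for the start of E230013L22Rik. Rab24, which shares its promoter with Prelid1, had peaks of 926 and 1423 bp. Rab7, which drives fusion with lysosomes, had a Jmjd2c peak of 926 bp alone. Rab9b and Rab39b had neither. Rab7b had no peak under a Rab name, but the files list it as 5430435G22Rik with a Jmjd2c peak of 563 bp, 94 bp from its start. Counting it would bring the Jmjd2c genes to 42.

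Among secretory Rabs Jmjd2a lay at 4 of 12 (33.3%, against 32.3% of protein-coding genes) and Jmjd2c at 7 of 12 (58.3%, against 44.6%). Rab10, which delivers vesicles to the plasma membrane, had a Jmjd2a peak of 866 bp that began 106 bp downstream of the start, inside a Jmjd2c peak of 1954 bp. Rab8a had both proteins on opposite sides of its start. The Jmjd2a peak of 719 bp ended 288 bp upstream, the Jmjd2c peak of 852 bp began 75 bp downstream, and 362 bp lay between them. Its paralog Rab8b, and Rab27a, which releases lysosome-related granules of blood cells, had Jmjd2c alone, with peaks of 1585 and 1127 bp. Rab13 had both proteins at a start shared with Rps27, and a further Jmjd2c peak of 919 bp at a second start. The Rab3 genes, which govern regulated exocytosis, fell into 3 classes. Rab3a and Rab3d had Jmjd2c alone (1074 and 488 bp), Rab3b had Jmjd2a alone and Rab3c had neither. Rab26, Rab27b and Rab37 had neither.

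The smaller classes were mixed. Rab23 and Rab28, linked to cilia, both had both proteins, and Rab28 had a Jmjd2c peak of 1895 bp with Jmjd2a peaks of 736 and 214 bp. Rab29, a partner of the kinase Lrrk2 and of one subfamily with Rab32 and Rab38, had peaks of 1004 and 1495 bp. Rab32, which sorts cargo to melanosomes and related organelles, had Jmjd2a alone, and Rab38 had neither. Rab44, a large Rab with EF hands, also had neither. Rab40c, which carries a SOCS box, had a Jmjd2a peak of 325 bp and Jmjd2c peaks of 1360 and 657 bp, while Rab40b and Rab42 had neither.

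The 3 genes with Jmjd2a alone had no Jmjd2c peak for a long distance. The Jmjd2a peak spanned 778 bp at Rab32 (chromosome 10, 10557474 to 10558251), 512 bp at Rab3b (chromosome 4, 108878978 to 108879489) and 389 bp at Rab11b (chromosome 17, 33760741 to 33761129). The peaks at Rab32 and Rab3b covered the start, and that at Rab11b lay 255 bp upstream. The nearest Jmjd2c peak was 591170 bp from the start of Rab32, 30201 bp from that of Rab3b and 20117 bp from that of Rab11b. No call of Jmjd2c does not show that the protein was missing, because depth and threshold are unknown.

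No gene lay just inside the 1000 bp limit, and Rab26 may lie just outside it. Of the bound genes, the farthest Jmjd2a peak lay 738 bp from the start of Rab40c and the farthest Jmjd2c peak, the second one of Rab40c, 531 bp from that start. Taking the nearest peak of each gene, the farthest for Jmjd2c lay 382 bp from the start of Rab39. Outside the limit, a Jmjd2c peak assigned to Traf7 lay 1071 bp from one end of Rab26. The strand of Rab26 is not given in the sources used, so that end may not be its start. Rab19 had peaks 3608 and 3586 bp away. Jmjd2c peaks lay 4874 bp from the start of Rab42, 4946 bp from that of Rab25 and 4984 bp from that of Rab33a. The peak near Rab33a lay within 1000 bp of the annotated upstream end of that gene, so this call depends on the start used. The nearest Jmjd2a peak lay 16382 bp from the start of Rab3d, beyond the far end of the gene.

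**Figure D2:**
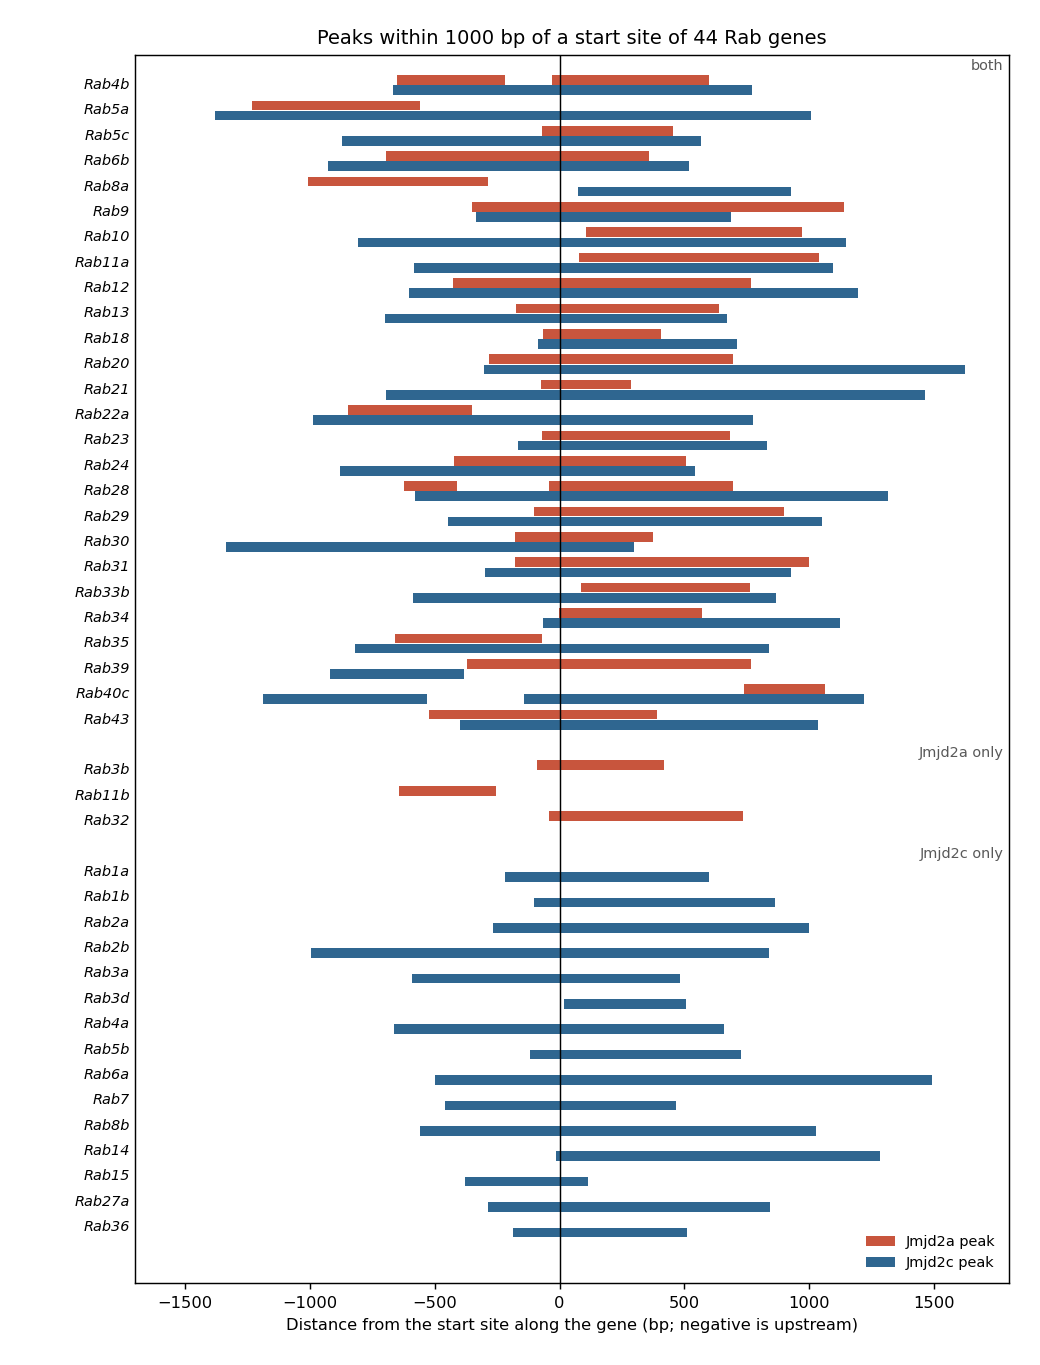
Position of every Jmjd2a peak (red) and Jmjd2c peak (blue) within 1000 bp of a start of 44 Rab genes, in bp along the gene, with upstream to the left. Each peak is drawn from the nearest start site of its gene, so the peaks at the separate starts of Rab13 are superimposed. At Rab34 the Jmjd2a peak is drawn from the start at 78188748 and the Jmjd2c peak from that at 78188427, so their relative position is shifted. Jmjd2c peaks cover the start in 38 of 41 genes, and Jmjd2a peaks in 20 of 29.

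Peaks covered the starts of Rab genes with both proteins about as often as other co-bound starts. Jmjd2c covered the start in 38 of 41 genes, the exceptions being Rab3d, Rab8a and Rab39. Among the 26 genes with both proteins it covered the start in 24, against 94.1% of the 6940 windows of the authors' deposited co-bound table. Jmjd2a covered the start in 20 of 29 genes, and in 18 of the 26 with both, against 67.2% of the windows. At Rab genes with several starts, any start counted. In 5 genes (Rab5a, Rab8a, Rab11b, Rab22a and Rab35) the nearest Jmjd2a peak lay wholly upstream, and in 4 (Rab10, Rab11a, Rab33b and Rab40c) wholly downstream. At Rab22a and Rab35 the upstream Jmjd2a peak was named in the deposited list for the neighbouring start, of Ppp4r1l-ps and 1110006O24Rik, which the Jmjd2c peak covered together with the Rab start.

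Where Jmjd2a covered the start it extended mainly into the gene. In the 18 genes with both proteins and a covering Jmjd2a peak, the median reach was 175.5 bp upstream and 617 bp downstream, and 16 of the 18 reached further downstream. Of the 6940 windows, 4662 had a covering Jmjd2a peak, with median reaches of 382 bp upstream and 569 bp downstream, and 68% of these reached further downstream. For Jmjd2c the medians at the 24 Rab genes with both proteins and a covering peak were 597 bp upstream and 895.5 bp downstream, against 626 and 831 bp over the windows. At 225 bp upstream of the start, Jmjd2a covered 30.8% of the 26 Rab starts with both proteins and 56.1% of all windows. At 200 bp downstream it covered 76.9% and 77.5%. These are differences of description, and they were not tested.

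**Figure D3:**
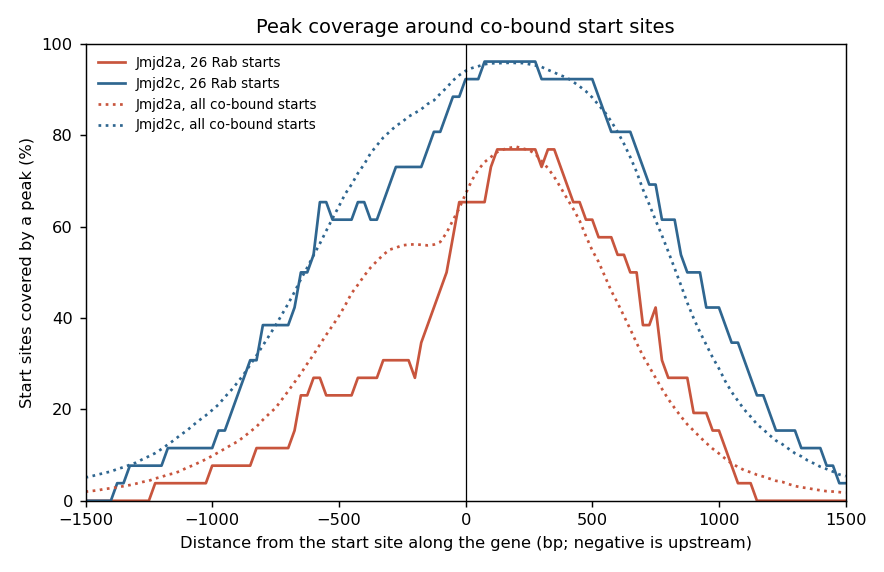
Percentage of start sites covered by a peak at each distance from the start (bp, in steps of 25 bp, upstream to the left), for the 26 Rab genes with both proteins (solid lines, the most upstream start of each gene) and all 6940 windows of the co-bound table (dotted lines). Jmjd2a (red) covers 30.8% of Rab starts at 225 bp upstream, below the dotted line at 56.1%, and meets it at 200 bp downstream (76.9% and 77.5%).

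Peak widths at Rab genes lay close to those at other starts. The widest Jmjd2a peak per gene had a median of 736 bp (interquartile range 554 to 959, 29 genes), and all Jmjd2a peaks near a start had a median of 761 bp (530 to 1062, 6908 peaks). For Jmjd2c the medians were 1360 bp (999 to 1660, 41 genes) and 1366 bp (1031 to 1729, 9053 peaks). Jmjd2c peaks at the 26 Rab genes with both proteins had a median of 1442.5 bp, and those at the 15 genes with Jmjd2c alone 1074 bp. Over all starts the medians were 1425 bp for Jmjd2c peaks that overlapped Jmjd2a and 1243.5 bp for the others. Width depends on depth and threshold and is not a measure of signal.

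Within the 26 genes with both proteins the Jmjd2c peak was the wider in 24, by a median factor of 1.86. Rab9 and Rab39 were the exceptions. The ratio was highest at Rab21 (5.99) and Rab40c (4.19) and lowest at Rab39 (0.472). The widths of the proteins did not rise together over the 26 genes (a Spearman rank correlation of -0.10, given as a description, since the widths come from 1 list per protein). Peaks of both proteins overlapped by at least 1 bp at 24 genes, all but Rab8a and Rab39, and at 20 genes the widest Jmjd2a peak lay wholly inside a Jmjd2c peak.

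**Figure D4:**
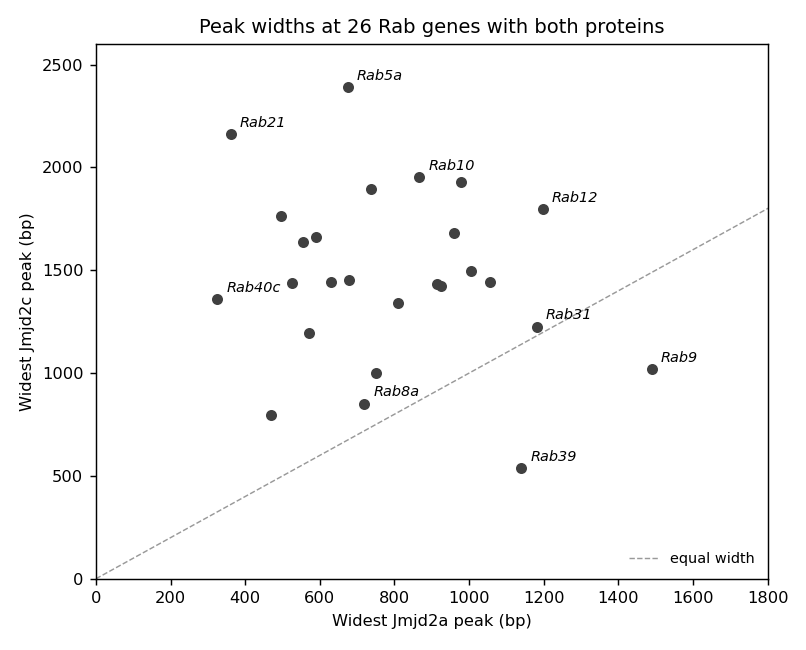
Width of the widest Jmjd2c peak against that of the widest Jmjd2a peak (both in bp) at the 26 Rab genes with both proteins, 1 point per gene. All points lie above the dashed line of equal width except Rab9 (1490 bp for Jmjd2a, 1020 bp for Jmjd2c) and Rab39 (1140 and 538 bp).

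Rab genes that share a number and differ by letter form 14 groups. In 12 of them members fell into different binding classes, and the Rab1 and Rab2 pairs had Jmjd2c alone throughout. Unrelated Rab genes also differ in class, and the count was not set against other groupings. One of the 12, Rab7 and Rab7b, would hold Jmjd2c alone if Rab7b were counted by its other name. Within these groups Rab9b, Rab33a and Rab39b had neither protein, as did 52.1% of protein-coding genes, whereas Rab9, Rab33b and Rab39 had both. The call for Rab33a depends on the start used, at 48519285. A Jmjd2c peak of 590 bp (chromosome X, 48513712 to 48514301) lay inside its annotated span, which begins at 48513663 on the plus strand. That peak is assigned to the start of Aifm1. From the annotated upstream end it would lie within 1000 bp, and Rab33a would then count as bound by Jmjd2c.

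Promoters of these paralogs are shown because their base composition was compared with binding. The 120 bases before the RefSeq start are given 5′ to 3′ on the gene's strand (GRCm38.p6, the primary assembly of mm10), with CpG dinucleotides in capitals. Rab11a and Rab11b differ in Jmjd2c, Rab3b and Rab32 are the other genes with Jmjd2a alone, and the remaining pairs each hold 1 gene with both proteins and 1 with neither.
Rab11a (both, chr9:64737757-64737876, minus strand): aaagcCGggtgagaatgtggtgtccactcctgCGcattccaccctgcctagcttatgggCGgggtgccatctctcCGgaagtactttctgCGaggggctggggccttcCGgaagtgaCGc
Rab11b (Jmjd2a only, chr17:33760487-33760606, minus strand): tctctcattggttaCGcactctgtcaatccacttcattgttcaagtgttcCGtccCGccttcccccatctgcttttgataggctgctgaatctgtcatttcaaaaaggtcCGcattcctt
Rab3b (Jmjd2a only, chr4:108878950-108879069, plus strand): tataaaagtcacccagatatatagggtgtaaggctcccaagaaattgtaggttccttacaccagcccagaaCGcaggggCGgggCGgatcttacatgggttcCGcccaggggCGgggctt
Rab32 (Jmjd2a only, chr10:10558208-10558327, minus strand): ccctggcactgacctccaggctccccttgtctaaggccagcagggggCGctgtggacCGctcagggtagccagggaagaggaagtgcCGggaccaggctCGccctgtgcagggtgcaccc
Rab33b (both, chr3:51483846-51483965, plus strand): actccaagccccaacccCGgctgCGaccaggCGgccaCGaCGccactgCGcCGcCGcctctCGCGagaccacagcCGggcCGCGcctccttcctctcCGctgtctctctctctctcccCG
Rab33a (neither, chrX:48519165-48519284, plus strand): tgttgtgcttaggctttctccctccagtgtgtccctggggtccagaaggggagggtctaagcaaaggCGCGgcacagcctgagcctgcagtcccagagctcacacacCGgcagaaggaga
Rab39 (both, chr9:53706233-53706352, minus strand): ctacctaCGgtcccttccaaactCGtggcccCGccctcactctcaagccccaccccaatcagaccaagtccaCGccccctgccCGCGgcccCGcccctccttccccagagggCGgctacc
Rab39b (neither, chrX:75578232-75578351, minus strand): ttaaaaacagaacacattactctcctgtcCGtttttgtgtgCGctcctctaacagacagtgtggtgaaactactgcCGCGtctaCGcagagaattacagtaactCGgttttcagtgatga
Rab40c (both, chr17:25919715-25919834, minus strand): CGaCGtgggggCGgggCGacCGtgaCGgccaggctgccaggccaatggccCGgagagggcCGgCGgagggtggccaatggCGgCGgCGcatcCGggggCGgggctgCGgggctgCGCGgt
Rab40b (neither, chr11:121388252-121388371, minus strand): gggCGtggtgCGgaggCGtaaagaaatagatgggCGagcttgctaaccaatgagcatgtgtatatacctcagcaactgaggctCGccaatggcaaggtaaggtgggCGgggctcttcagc
Rab9 (both, chrX:166479868-166479987, minus strand): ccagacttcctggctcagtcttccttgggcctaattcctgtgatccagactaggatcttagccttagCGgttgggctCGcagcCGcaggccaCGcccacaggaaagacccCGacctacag
Rab9b (neither, chrX:136868557-136868676, minus strand): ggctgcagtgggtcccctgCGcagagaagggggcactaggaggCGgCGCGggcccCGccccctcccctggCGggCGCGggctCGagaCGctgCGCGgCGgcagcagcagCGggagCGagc

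CpG counts in these stretches did not order the pairs by binding in every case. Rab33b (both) had 15 CpG against 3 in Rab33a (neither at the RefSeq start used), and Rab40c (both) had 17 against 6 in Rab40b (neither). Rab39 had 8 and Rab39b 6. Rab9, with both proteins, had 5, fewer than the 15 of the unbound Rab9b. The genes with Jmjd2a alone had 4 at Rab11b, 5 at Rab3b and 4 at Rab32, and Rab11a had 7.

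Rab genes with Jmjd2c mostly had CpG-rich promoters, as did other genes with Jmjd2c. A window of 250 bp before to 50 bp after the start was called CpG-rich when its G+C was at least 50% and its CpG count at least 0.6 of that expected from its C and G content. Such windows were available for 48 of the 59 Rab genes, and 35 of them (72.9%) were CpG-rich, against 47.4% of 16852 protein-coding genes. The missing windows fell unevenly. They were available for 24 of the 26 Rab genes with both proteins and 9 of the 15 with neither. Over protein-coding genes they were available for 4953 of 6088 with both and 8626 of 10945 with neither. For Rab genes the window at a start site deposited with the peaks was taken where available, and otherwise the first listed. For protein-coding genes it was always the first listed. The effects of this difference and of the missing windows on the shares of CpG-rich promoters and motifs were not tested. By class, 12 of 12 Rab genes with Jmjd2c alone were CpG-rich, against 73.9% of protein-coding genes of that class, and 21 of 24 with both proteins, against 80.5%. So were 1 of 3 with Jmjd2a alone, against 66.2%, and 1 of 9 with neither, against 18.9%. Read the other way, Jmjd2c lay at 33 of 35 CpG-rich Rab promoters (94.3%, against 75% of CpG-rich protein-coding promoters) and at 3 of 13 CpG-poor ones (23.1%, against 18.9%). Jmjd2a lay at 22 of 35 CpG-rich (62.9%, against 54.5%) and 5 of 13 CpG-poor Rab promoters (38.5%, against 13%). The share of CpG-rich promoters thus differs between Rab genes and other genes along with the share bound, and its part in the difference in binding was not tested.

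The exceptions were few. CpG-rich Rab promoters without Jmjd2c were those of Rab11b, with an observed to expected ratio of 0.61, and Rab40b, with 0.69. CpG-poor promoters with Jmjd2c were those of Rab9 (0.43), Rab34 (0.52) and Rab29, whose ratio was 0.79 at a G+C of 45.3%. The ratios of Rab3b and Rab32, with Jmjd2a alone, were 0.40 and 0.41. The median over the 3 Rab genes with Jmjd2a alone was 0.41, and over 557 protein-coding genes with Jmjd2a alone it was 0.74.

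**Figure D5:**
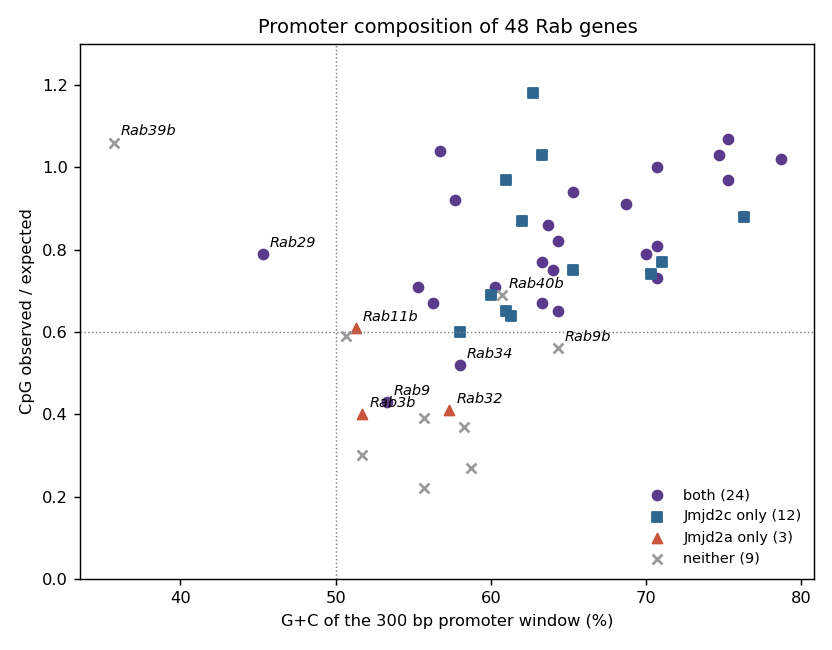
CpG observed to expected ratio against G+C (%) of the 300 bp promoter window of 48 Rab genes, 1 point per gene, by binding class. Dotted lines mark a G+C of 50% and a ratio of 0.6. Genes with Jmjd2c alone (blue squares, 12) all lie in the upper right field, and 8 of the 9 genes with neither (grey crosses) lie outside it.

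Short motifs were counted in the same windows on both strands. The Sp and KLF box GGGCGG was in 34 of 48 Rab promoters (70.8%) and in 47.7% of protein-coding promoters. Among genes with both proteins it was in 18 of 24 Rab promoters and in 69.2% of protein-coding promoters. The CCAAT box, searched as CCAAT, was in 23 of 48 (47.9%, against 39.3%), and the ETS core CCGGAA in 13 (27.1%, against 19.5%). Among genes with both proteins the CCAAT box was in 11 of 24 Rab promoters, against 39.9% of protein-coding promoters. The ETS core was in 7 of these 24, against 33.1%, so it was not more frequent there. The E box CACGTG was in 5, those of Rab5a, Rab20, Rab21, Rab23 and Rab24 (10.4%, against 8.11%), all of which had both proteins. That is 5 of 24 Rab promoters with both, against 11.4% of protein-coding promoters with both. The CRE core TGACGT was in 7 (14.6%, against 8.97%), and in 3 of the 24 with both, against 12.8%. The NRF1 core GCATGCG was in 2 (4.17%, against 4.64%) and the TATA box TATAAA in 4 (8.33%, against 13.2%). No motif contains another, although all but CCAAT and TATAAA include a CpG. A match is a description of the letters and shows no bound factor.

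Genes that control Rab proteins were bound by Jmjd2c as often as, or more often than, Rab genes, apart from effectors and Rab-like genes. Over protein-coding genes the shares were 44.6% for Jmjd2c and 32.3% for Jmjd2a. Of 51 exchange factor genes 43 had Jmjd2c (84.3%) and 27 had Jmjd2a (52.9%). The widest Jmjd2a peaks among those with both lay at Mon1b, part of the Rab7 exchange factor (2075 bp, with 1032 bp for Jmjd2c), Sbf1 (1602 and 1352 bp), Dennd4c (1476 and 1186 bp) and Ric1, part of the Rab6 exchange factor (1453 and 2625 bp). Of 42 genes of GTPase-activating proteins 36 had Jmjd2c (85.7%) and 28 had Jmjd2a (66.7%). Those with both and the widest Jmjd2a peaks were Tbc1d1, which acts on Rab10 in glucose transporter traffic (2333 and 2209 bp), Sgsm2 (1595 and 3053 bp), Rabgap1l (1576 and 1698 bp) and Grtp1 (1441 and 1188 bp).

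Of 7 genes for prenylation and GDP-dissociation inhibition, 6 had Jmjd2c and 2 had Jmjd2a. These 2 were Rabggtb, a subunit of Rab geranylgeranyl transferase (1244 bp for Jmjd2a, 1468 bp for Jmjd2c), and Gdi2, which extracts Rabs from membranes (702 and 978 bp). Chm, Rabggta and Rabac1 had Jmjd2c alone and Chml had neither. Of 32 effector genes 18 had Jmjd2c and 18 had Jmjd2a (56.2% each). Those with both and the widest Jmjd2a peaks were Eea1, the early endosome tether (1926 and 2008 bp), Rabep1 (1557 and 1379 bp), Rabep2 (1452 and 1461 bp) and Rab11fip2 (1431 and 1315 bp). Of 6 Rab-like genes 4 had Jmjd2c and 3 had both, at Rabl6, Ift22 and Rabl2.

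The Arf family, small GTPases that also control vesicle traffic, had higher shares than the Rab genes. Jmjd2c lay at 26 of its 30 genes (86.7%) and Jmjd2a at 20 (66.7%). The difference between the families was not tested.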

How the data were processed

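The submitters' processing notes name build mm10, bedtools 2.25.0, SAMtools and the aligner Bowtie 0.12.7. The sources used here do not state the peak caller, its threshold, its control or whether libraries were pooled. The authors deposited peak positions, the nearest start site and its distance in bp, per the file headers, and start-site windows bound by both proteins. They deposited no counts, scores or values per library, so depth is unknown.

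Positions were read as counted from 0 and are printed from 1. A recalculation of 17422 deposited distances to single start sites gave 0 differences. Entries were matched to RefSeq genes on GRCm38.p6, and a Rab gene also had to bear a Rab name in the files, where Rab1 stands for Rab1a by its accession. The strand of Rab36 and Rab7b was taken from the gene end next to the start. Promoters come from RefSeq on that assembly. Shares were set beside those of protein-coding and all curated genes, without tests. Alternatives were windows of 500 and 5000 bp, peaks covering the start, the wider 50% of peaks, reference starts and other overlaps.

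Members and lists were chosen with earlier results of these data known. Genes described in full were those with the 8 widest peaks of either protein, those with Jmjd2a alone, paralogs of unlike binding and up to 4 members per regulator list with both proteins and the widest Jmjd2a peak. Distances were tested on simulated peaks. Python 3.11.15, numpy 2.4.6, pandas 2.3.3 and matplotlib 3.10.9 were used. Some genes of the comparison lists are not reported here.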

Additional observations from a re-analysis of the deposited data

How the results depend on the processing

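The counts of Rab genes with Jmjd2a (29), Jmjd2c (41) and both (26) stayed within a factor of 1.5 with windows of 500 bp (27, 41 and 24) and 5000 bp (29, 41 and 26). The windows were applied to named genes only, so the 15 genes not named could not enter at 5000 bp. Besides Rab7b, Jmjd2c lay within 5000 bp of a reference start or gene end of Rab19, Rab25, Rab26, Rab33a and Rab42, and Jmjd2a of Rab19. The counts also stayed within that factor with reference start sites of all 59 genes and the 1000 bp window (29, 42 and 26). So did matching by accession, chosen after seeing the data (29, 42 and 26). Requiring the peak to cover the start left 20, 38 and 17 of the 59 Rab genes, against 22.5%, 41.8% and 19.8% of 21027 protein-coding genes. The count for both proteins thus moved by more than a factor of 1.5. Keeping the wider 50% of each list left 16, 23 and 10 of the 59 Rab genes, against 19.5%, 26.8% and 11.8% of protein-coding genes. All of these counts moved by more than a factor of 1.5, as follows from removing 50% of the peaks. Overlapping peaks were found at 24 genes, also when 50% of the shorter peak had to be shared, and at 26 within 1000 bp. Counting every peak once gave median widths of 719 and 1343 bp. No paired analysis was possible because the peak lists carry no replicate numbers and no values per library. Unknown depth limits every absent call.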

Other observations

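The following groups of regulators were drawn up after their binding was seen, so their contrast is a description and no finding. Over protein-coding genes 32.3% had Jmjd2a, 44.6% Jmjd2c and 29% both. Genes for the subunits specific to the TRAPPII and TRAPPIII complexes (Trappc8, Trappc9, Trappc10, Trappc11, Trappc12 and Trappc13), which activate Rab1 and Rab11, had both proteins in 6 of 6 cases. Genes for the core subunits, which both complexes share (Trappc1, Trappc2, Trappc2l, Trappc3, Trappc4, Trappc5, Trappc6a and Trappc6b) all had Jmjd2c, 8 of 8, but Jmjd2a in 2, Trappc2l and Trappc4. Effectors of the endosomal Rab4, Rab5 and Rab11 (Rabep1, Rabep2, Eea1, Rbsn, Appl1, Appl2 and Rab11fip1 to Rab11fip5) had Jmjd2c in 10 of 11 cases and Jmjd2a in 9. Effectors of the secretory Rab3 and Rab27 (Rims1, Rims2, Rph3a, Sytl1 to Sytl5, Mlph, Myrip and Unc13d) had neither in 10 of 11, with both proteins at Rims2 alone. These counts carry no test.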
